A study of Epimedium pubescens with 12 samples.

Results

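Predicted miRNAs are small RNAs of Epimedium pubescens that software proposed from the hairpin shape of their precursors, and the table numbers them novel_ with no family name. The members described here were chosen by their measured counts: names starting with novel_ whose counts over the 12 libraries sum to 500 or more, without 16 names that the rule sets aside. The rule found 61 members among the 198 predicted miRNAs of the table, which lists 220 miRNAs in all, the other 22 being known miRNAs with an aqc name. Without the 16 names left out, 71 predicted miRNAs reached 500 counts, so 10 well expressed ones are not members. Members just inside the threshold were novel_176, novel_311 and novel_259, with total counts of 567, 521 and 515. Just outside it were novel_218 with 475 counts, novel_87 (also left out by name) with 425 and novel_83 with 378.

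The libraries came from leaves of plants grown in river sand and perlite and sampled at 30 d or 90 d. The plants were watered with nutrient solution holding 0 mmol/L phosphate (-P) or 1 mmol/L phosphate (+P). The 4 groups, 30d -P, 30d +P, 90d -P and 90d +P, had 3 libraries each, lettered A, B and C. Each replication held 12 seedlings; how many of them gave leaves to a library is not stated. No genotype, allele or other agent separates the groups, and all of them shared the light, the temperature and the growth substrate. A table of miRNAs holds no leaf marker genes, so the tissue label was not checked here. Total counts per library ran from 380316 to 1466897, and a floor of 3 counts corresponded to 2.05 to 7.89 TPM.

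Plant miRNAs are cut from hairpin precursors by Dicer-like enzymes, are loaded into an Argonaute protein and guide the cleavage or repression of matching mRNAs. Several conserved families are known for nutrient signalling, miR399 in phosphate starvation among them. A predicted miRNA rests on a prediction by software, and neither a target nor a role is given here for any member. The sequences and the genome positions of the members were not analysed here, so no member is placed in a family. In RNA from whole leaves, fewer cells of a type and less RNA per cell cannot be told apart.

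The deposited level is TPM, here each count as its share of the library scaled to a total of 1000000, with no term for length. Levels of different members are compared on that scale, and their mature lengths were not used here. On this scale the members together held 15.6% of all 11526632 counts. A few of them held most of that: novel_3 alone had 35.2% of the member counts, novel_3 and novel_4 together 59.4%, the first 5 members 74.6% and the first 10 members 83.5%. Mean TPM over the 12 libraries ran from 43.1 in novel_259 to 64130 in novel_3, with a median of 308. Of the 61 members, 3 had a mean of at least 10000 TPM, 17 lay between 1000 and 10000, 24 between 100 and 1000, and 17 under 100. Counts were found in every library for 55 members. The other 6, novel_81, novel_85, novel_162, novel_176, novel_189 and novel_311, were at 0 counts in 1 to 4 libraries, and none of the 61 was at 0 in all 3 libraries of a group. At these depths, 0 counts allows a level of up to 2.05 to 7.89 TPM.

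**Figure D1:**
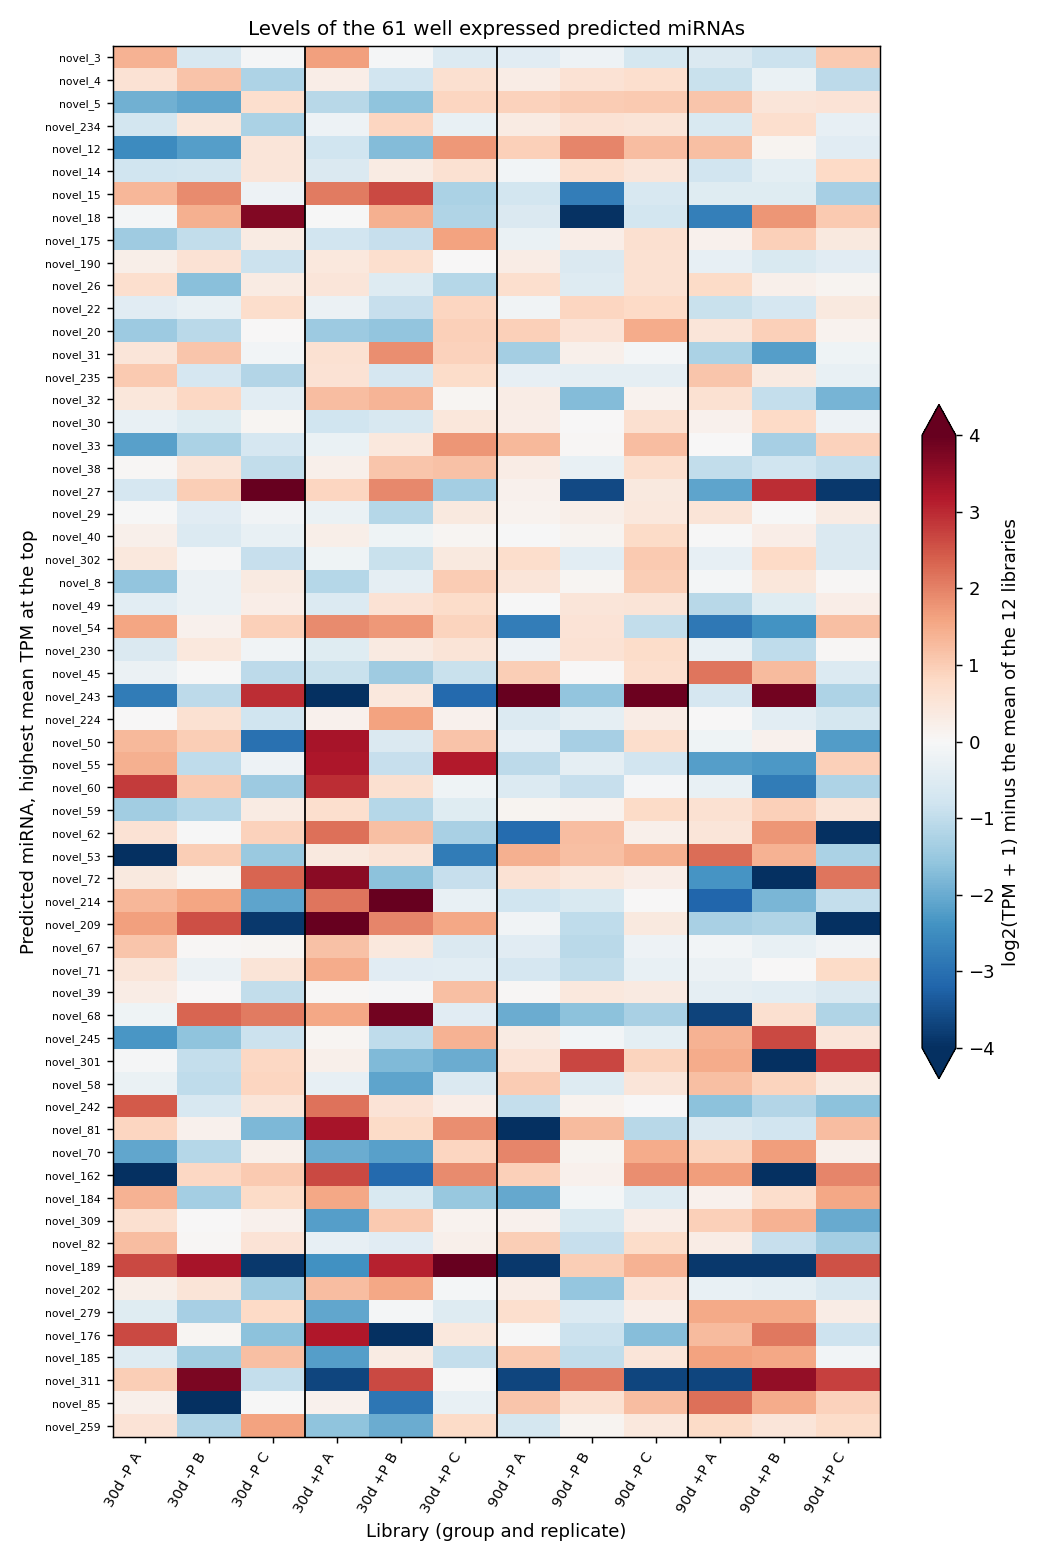
Levels of the 61 members (rows, highest mean TPM at the top) in the 12 libraries (columns, by group and replicate letter), as log2(TPM + 1) minus the mean of that member over the 12 libraries, with the colour scale ending at 4 on either side. The A and B libraries of 30d -P and 30d +P look alike in many rows, for example low in novel_5 and novel_12 and high in novel_15, and rows such as novel_27, novel_243, novel_189 and novel_311 switch between libraries of one group.

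The libraries did not sort by group over these 61 members, and this bears on every comparison below. The values of this paragraph are on log2 counts scaled to a common total, after correction by the trimmed mean of M values. On that scale 2 of the 12 libraries, 90d -P A and 90d -P C, correlated best with a library of their own group. At 30 d the nearest library of each A library was the A library of the other phosphorus level (Pearson r = 0.860 over the 61 members), and the B libraries were likewise each other's nearest (r = 0.925). The C libraries of 30 d stood apart from those 4: 30d -P C was nearest to 90d -P C (r = 0.859) and 30d +P C to 90d -P B (r = 0.883). The mean r was 0.791 for the 12 pairs within groups (0.662 to 0.959) and 0.765 for the 54 pairs between groups (0.566 to 0.925), as a description over members that share these libraries. On the first principal component of the members, with 33.65% of their variance, the A and B libraries of 30 d lay between -9.16 and -6.49, 30d +P C at -1.59, 30d -P C at 3.66, and the 6 libraries of 90 d between 1.47 and 8.29. What the C libraries of 30 d share was not tested, and results that rest on them are given with and without them.

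The share of each library's counts held by the members was 22.8%, 15.2% and 13.8% in 30d -P A, B and C. It was 26.0%, 13.5% and 16.2% in 30d +P, 14.1%, 16.1% and 16.1% in 90d -P, and 11.2%, 11.9% and 17.8% in 90d +P. The groups overlapped, with means of 17.3% ± 4.87, 18.6% ± 6.59, 15.5% ± 1.13 and 13.6% ± 3.63 (SD, n = 3 each). Counting error was small beside that spread, with exact Clopper-Pearson 95% intervals of at most 0.114 percentage points to either side. A single known miRNA, aqc-miR166e, of a family known for restricting HD-ZIP III transcription factors in leaf polarity, took 47.2% ± 7.49, 41.9% ± 5.83, 58.9% ± 5.97 and 63.9% ± 14.0 of the counts in the same groups (SD, n = 3). With aqc-miR166e taken out of the total, the members held 32.4% ± 4.86 and 31.6% ± 8.22 at 30 d -P and +P and 37.9% ± 3.25 and 38.8% ± 4.14 at 90 d -P and +P. The order of the groups therefore turned with the denominator. The share carries no test, since the members were chosen by count.

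The most abundant member, novel_3, had 138838, 33771 and 51139 TPM in 30d -P A, B and C, and 165410, 51607 and 35936 TPM in 30d +P. At 90 d it had 38518, 46417 and 32424 TPM in -P and 35568, 29489 and 110443 TPM in +P. Its 3 highest libraries, 30d +P A, 30d -P A and 90d +P C, came from 3 different groups. The next member, novel_4, had 48649, 71269 and 13692 TPM in 30d -P, 39152, 18837 and 50408 in 30d +P, 39598, 48380 and 52005 in 90d -P, and 17526, 26667 and 15739 in 90d +P. At 90 d its -P libraries all lay above its +P libraries, and its fitted log2 difference there was 0.86 (SE 0.66, adjusted p = 0.658). These values put novel_3 at rank 1 or 2 among the members in every library and novel_4 at ranks 1 to 3.

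The member next in mean level, novel_5, had 2084 and 1871 TPM in the A and B libraries of 30d -P but 12529 in C, and 3662 and 2553 TPM in those of 30d +P but 14244 in C. Its 6 libraries of 90 d held 14984, 15828 and 16024 TPM in -P and 17000, 10921 and 11521 in +P. The A and B libraries of 30 d were thus low in novel_5, and the other 8 were high whatever the time or the phosphorus. A similar order was seen in novel_12, with 501, 623 and 3991 TPM in 30d -P, 1656, 857 and 9504 in 30d +P, 5525, 11187 and 6765 in 90d -P, and 6568, 3113 and 2099 in 90d +P. Over the 12 libraries the log2 levels of novel_5 and novel_12 had r = 0.940.

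The opposite order held for novel_15. It had 4460, 6532 and 1553 TPM in 30d -P and 7492, 11075 and 736 TPM in 30d +P. Its levels at 90 d were 1076, 259 and 1141 TPM in -P and 1283, 1260 and 706 in +P, all below the A and B libraries of 30 d and not all below the C libraries. The member novel_18 had 1253, 3530 and 17019 TPM in 30d -P, 1299, 3494 and 566 in 30d +P, 888, 83.5 and 785 in 90d -P, and 196.4, 4493 and 2709 in 90d +P. That range took novel_18 from rank 2 to rank 36 among the members, and novel_15 moved between ranks 3 and 29.

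For novel_234 the lowest, mean and highest of the 12 libraries were 2394, 6245 and 10449 TPM, with group means of 4525 ± 2857 and 6703 ± 3248 TPM at 30 d in -P and +P and of 7958 ± 652 and 5794 ± 2906 TPM at 90 d in -P and +P (SD, n = 3). The group means of novel_14 were 2592 ± 1414, 3466 ± 1307, 3935 ± 1025 and 3115 ± 1871 TPM in the same order. For novel_175 they were 1713 ± 1151, 3358 ± 3491, 2851 ± 860.0 and 3519 ± 1036 TPM. For novel_190 they were 2455 ± 1089, 3018 ± 647, 2626 ± 1016 and 1670 ± 163 TPM. The groups overlapped in TPM for novel_234, novel_14 and novel_175, and for novel_190 they overlapped except that all 90d +P libraries lay below all 30d +P libraries.

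Neighbours in the order of mean level mostly did not differ beyond their spread. The mean of novel_3 exceeded that of novel_4, yet novel_3 was the higher of the pair in 7 of 12 libraries. Next, novel_4 was higher than novel_5 in 12 of 12 libraries. The gap was small in 90d +P A (17526 and 17000 TPM) and in 30d -P C (13692 and 12529 TPM). Further down, novel_5 exceeded novel_234 in 8 libraries, novel_234 exceeded novel_12 in 8, novel_12 exceeded novel_14 in 6, novel_14 exceeded novel_15 in 8, novel_15 exceeded novel_18 in 9, novel_18 exceeded novel_175 in 4 and novel_175 exceeded novel_190 in 7. The order given is that of these means, and as the members were chosen by count it carries no test.

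**Figure D2:**
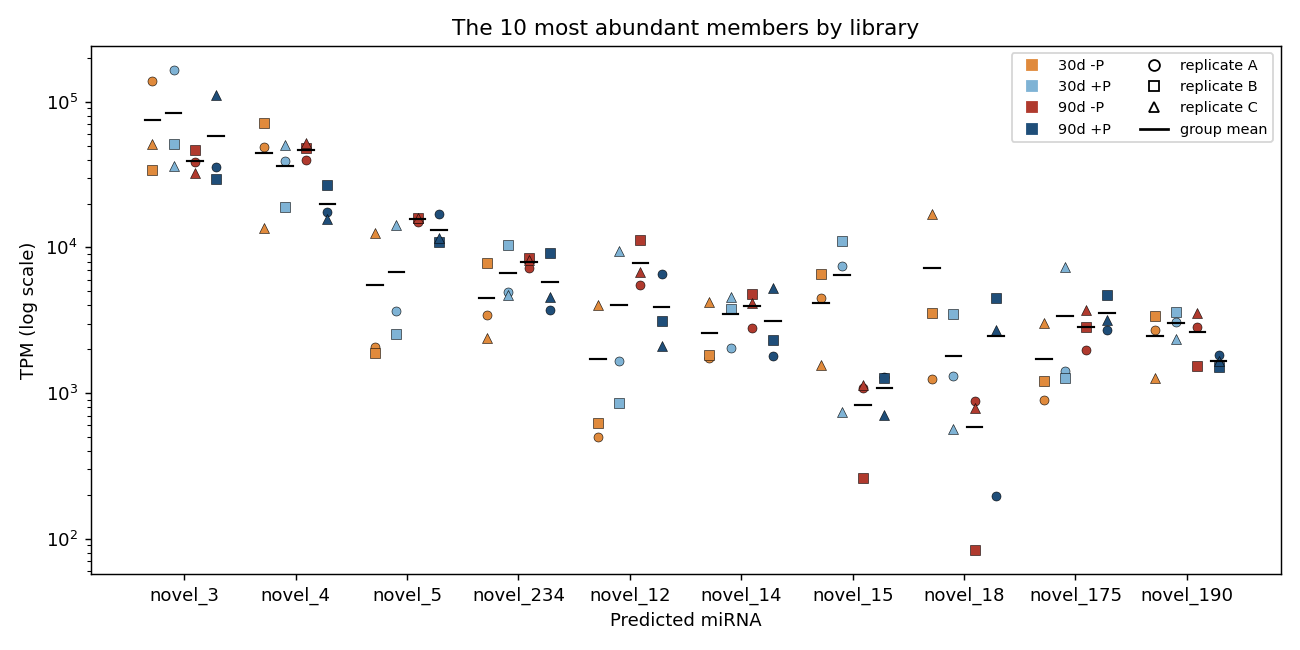
TPM (log axis) of the 10 members with the highest mean, by library; colours mark the 4 groups, marker shapes the replicate letters and bars the group means. The step from novel_4 to novel_5 is seen in every library, whereas the ranges of novel_12 to novel_190 overlap, and the triangles of both 30 d groups lie away from the circles and squares in novel_5, novel_12 and novel_15.

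Replicates of one group often differed several-fold. The within-group SD of log2 CPM (counts scaled to a common total, here after correction by the trimmed mean of M values, TMM) had a median of 1.09 over the 61 members, equal to a factor of 2.12, against 1.13 over the 137 miRNAs tested and 0.84 over the 16 known miRNAs tested. For 34 members, the 6 with a library at 0 included, the highest library had at least 10 times the TPM of the lowest, and for 14 members it had under 5 times. Within 90d -P, libraries A and C placed 53 of the 61 members within 2-fold of each other, whereas within 30d +P libraries A and C did so for 18 of 61. One library, 30d +P C, held 51.1% of the counts of novel_55.

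The smallest spread was that of novel_67, with an SD of 0.30 on the log2 scale, followed by novel_40 with 0.31 and novel_71 with 0.50. In TPM, novel_40 had 863, 516 and 608 in 30d -P, 878, 668 and 794 in 30d +P, 746, 815 and 1270 in 90d -P, and 751, 907 and 504 in 90d +P. No library of novel_40 exceeded another by more than 2.53-fold, the narrowest range of the 55 members with counts throughout. For novel_67 the values were 298, 141 and 145 TPM in 30d -P, 308, 181 and 92.0 in 30d +P, 99.7, 64.5 and 119 in 90d -P, and 126, 111 and 123 in 90d +P. All 90d -P libraries of novel_67 lay below all 30d -P libraries. The third of these steady members, novel_71, had group means of 163 ± 42.8, 190 ± 159, 86.7 ± 21.2 and 160 ± 61.3 TPM (SD, n = 3, in the order used above).

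The largest spread was that of novel_189, with an SD of 3.13 on the log2 scale, then novel_311 with 2.87 and novel_243 with 2.86. Both scarce ones were present in some libraries and at 0 in others of the same group: novel_189 had 48, 109 and 0 counts in 30d -P, 1, 47 and 338 in 30d +P, 0, 37 and 38 in 90d -P, and 0, 0 and 77 in 90d +P. For novel_311 the counts were 13, 134 and 4, then 0, 30 and 17, then 0, 71 and 0, and last 0, 176 and 76, in the same order. The more abundant novel_243 reached 1618 and 1282 TPM in 90d -P A and C with 27.3 TPM in 90d -P B, and 1231 TPM in 90d +P B with 52.4 and 35.3 TPM beside it. Its 30 d libraries held 11.3, 40.5 and 660 TPM in -P and 1.74, 113 and 8.86 TPM in +P. Likewise novel_27, with an SD of 2.55, had 6758 TPM in 30d -P C and 2628 TPM in 90d +P B against 22.0 TPM in 90d +P C. Such members were high in 1 or 2 libraries of a group and low in the rest.

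**Figure D3:**
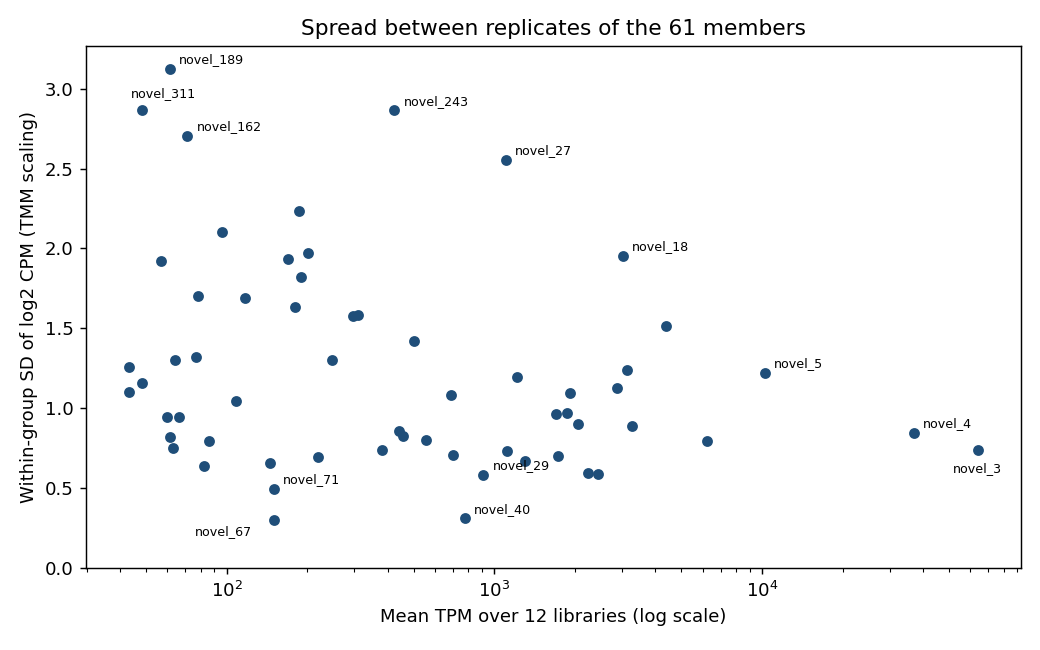
Within-group SD of log2 TMM-scaled CPM (vertical axis) against mean TPM over 12 libraries (horizontal log axis), 1 point for each of the 61 members. The widest spreads, 2.55 to 3.13, belong to novel_27, novel_243, novel_162, novel_311 and novel_189, and novel_67 and novel_40 are the lowest points at 0.30 and 0.31.

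Some members tracked each other from library to library. Of 1830 pairs of members, 7 had r above 0.9 on log2(TPM + 1) over the 12 libraries, and the median pair had r = 0.01; these are descriptions over libraries that share groups and depth. The closest pair, novel_279 and novel_185, had r = 0.972. Their counts were equal in 30d -P C (58 each) and 30d +P B (17 each) and higher in novel_279 in the other 10, by a little in 90d -P A (109 and 107) and by more in 30d +P C (48 and 26). Whether these 2 names share reads was not tested. Another set of names ran through 5 of the 7 pairs: novel_20 with novel_70 (r = 0.968), novel_30 (r = 0.922) and novel_5 (r = 0.912), novel_5 with novel_12, and novel_30 with novel_70 (r = 0.906). The last of the 7, novel_190 and novel_202, had r = 0.909. At the other end, novel_54 and novel_45 had r = -0.926, the lowest of the 1830.

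The novel_5 set was also the one that divided the 30 d libraries by letter. In TPM, 7 members, novel_5, novel_8, novel_12, novel_20, novel_30, novel_70 and novel_175, were lower in the A and B libraries of 30 d, at both phosphorus levels, than in any of the other 8 libraries. That is 11.5% of the 61 members, against 5.11% of the 137 miRNAs tested. In the reverse direction, 4 members, novel_15, novel_60, novel_209 and novel_214, were higher in those 4 libraries than in any other, 6.56% of the members against 12.4% of all tested. After TMM scaling 9 members showed the first order (14.8%, against 7.3% of all tested) and 3 the second (4.92%, against 5.84%).

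For the comparisons, counts of all 137 miRNAs that passed a filter on low counts, all 61 members included, were fitted in one edgeR quasi-likelihood model of the 4 groups, with Benjamini-Hochberg adjustment over the 137. The common biological coefficient of variation was 86.5%, so that differences between means of 3 libraries had to be several-fold to pass. The p-values measure the spread between these libraries. A second, looser rule, which the methods of the study state for miRNAs, took an unadjusted p under 0.05 with a log2 difference of at least 1. Every miRNA with an unadjusted p under 0.05 also met that size, so both counts are the same in each comparison. Of the 14 names left out that were tested, 7 passed this rule in 90d -P against 90d +P, so nothing is read from a low number of members called. Of the 61 members, 15 would fall under 500 counts without the libraries of some 1 group. Where such a member is higher in that very group it was favoured by the rule to differ, and its difference is given as a description with no p. Counts of members whose libraries do not overlap can include such members and are descriptions too. The comparisons share groups with one another, and their values stand side by side only.

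**Figure D4:**
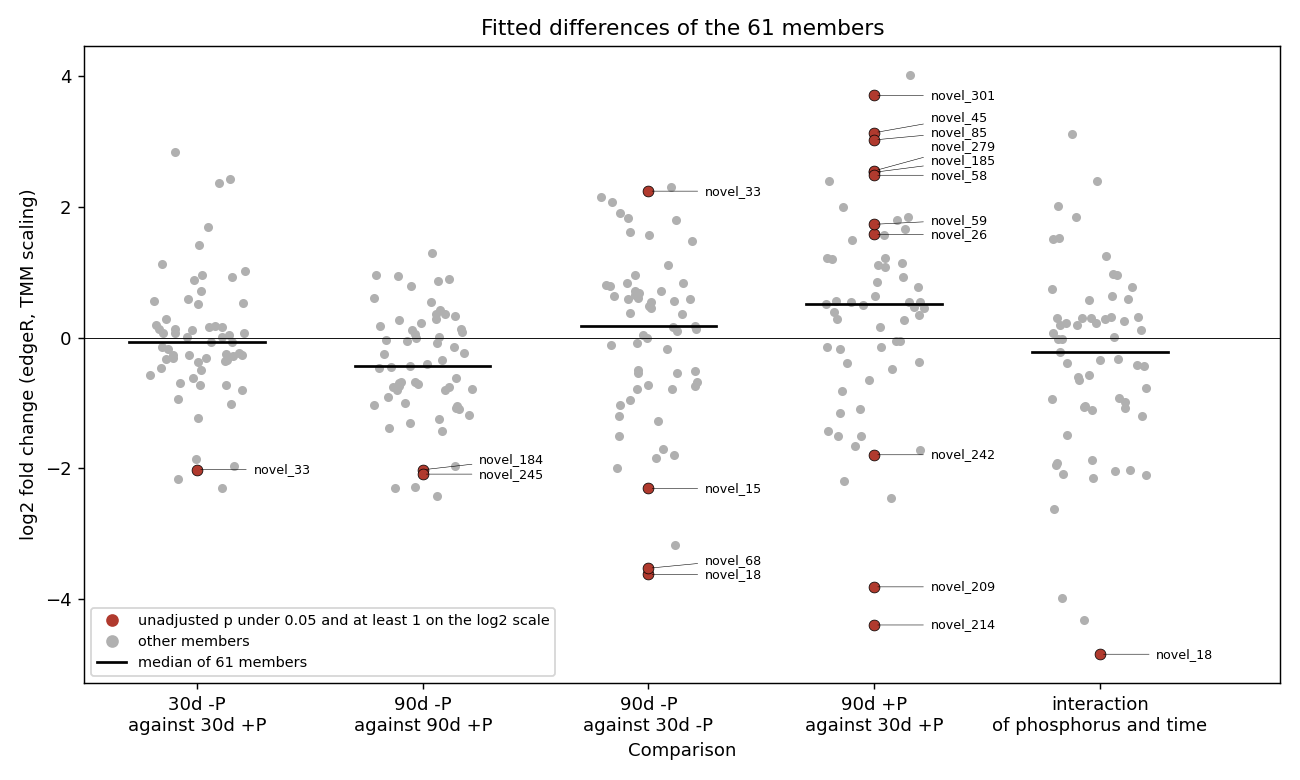
Fitted log2 differences (vertical axis) of the 61 members in the 4 comparisons between groups and in the interaction, with horizontal bars at the median of the members; red points passed the unadjusted rule and carry their names, and none passed the adjusted threshold. Most points lie within 1 of zero at 30 d (47 of 61, against 92 of all 137 miRNAs tested). The 11 named points of 90d +P against 30d +P are the most of any comparison (11 of 61, against 36 of 137, 26.3%). The share of the members there is thus below that of all tested.

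Early phosphorus deficiency was examined by 30d -P against 30d +P. No member was called at an adjusted p under 0.05 by edgeR, DESeq2 or limma, as was none of the 137 miRNAs in edgeR (0.0%), and the smallest adjusted p was 0.962. By the unadjusted rule 1 member was called, novel_33, against 5 of 137 miRNAs (3.65%: 2.19% higher and 1.46% lower in -P). In 30d -P A, B and C novel_33 had 203, 382 and 568 TPM, and in 30d +P 764, 1228 and 3100 TPM. All -P libraries lay below all +P libraries in TPM, the only member of which this was true in either direction (0.73% of all tested higher, 3.65% lower). After TMM scaling, which divided the A libraries by larger factors, novel_33 overlapped and 1 other member lay wholly higher, novel_82 (2.19% of all tested), and 1 wholly lower, novel_54 (0.73% of all tested). The fitted log2 difference of novel_33 was -2.02 (SE 0.91, unadjusted p = 0.0448, adjusted p = 0.962).

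The call of novel_33 at 30 d rested on single libraries. Its unadjusted p rose to 0.0853 without 30d -P A, 0.0948 without 30d -P B and 0.188 without 30d +P C, with a log2 difference of -1.03 in the last case. With both C libraries left out the difference was -1.31 (unadjusted p = 0.133). The A, B and C libraries of the 2 groups deviated together, and with the letter as a block the difference was -1.73 (unadjusted p = 0.0606, adjusted p = 0.988, in a range of 0.389 to 0.997 over 16 alternatives), so that no member was called. The number of members called by the unadjusted rule was 0 without 30d -P B, 2 without 30d -P A or 30d +P C, and 4 without 30d -P C or 30d +P B. In those fits, in that order, 1.33%, 5.52%, 2.08%, 5.33% and 7.38% of all tested were called. Over all 61 members the median log2 difference was -0.07 with 29 higher and 32 lower, against -0.15 over the 137.

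Prolonged deficiency was examined by 90d -P against 90d +P. Of the 137 miRNAs, 3 passed the adjusted threshold (2.19%), all of them outside the members: 1 known miRNA and 2 of the names left out. No member passed it in edgeR, DESeq2 or limma, with a smallest adjusted p of 0.482. By the unadjusted rule 2 members, novel_184 and novel_245, were called, both lower in -P, against 11 of 137 (8.03%: 4.38% higher and 3.65% lower). In TPM novel_184 had 11.1, 46.3 and 34.2 in 90d -P A, B and C and 55.7, 80.2 and 145 in 90d +P. Its libraries did not overlap, and the log2 difference was -2.02 (SE 0.90). Without the 90d +P libraries novel_184 has 374 counts, under the 500 of the rule, so this difference is a description. For novel_245 the values were 89.3, 64.5 and 53.8 TPM in 90d -P and 186, 439 and 98.1 TPM in 90d +P. These too did not overlap, with a log2 difference of -2.09 (SE 0.94, unadjusted p = 0.0433, adjusted p = 0.482).

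Both calls at 90 d were lost in several ways. The call of novel_184 was lost without any 1 of 90d -P A, 90d -P C, 90d +P A, 90d +P B or 90d +P C. That of novel_245 was lost without any 1 of 90d -P A, B or C or 90d +P B (unadjusted p of 0.0509 to 0.161). No member was called without 90d -P A, 90d -P C or 90d +P B, and 1 was called without 90d +P C. In those fits, in that order, 6.16%, 4.05%, 6.85% and 11.3% of all tested were called. Scaled by library totals only, 1 member was called (9.49% of all tested), novel_4, and it was higher in -P. With limma at a pseudocount of 1 or 10 novel_4 was again the 1 member called (9.49% or 7.3% of all tested). Neither novel_184 nor novel_245 was called in these fits. In TPM, 6 members lay wholly above in -P (novel_4, novel_38, novel_39, novel_209, novel_214 and novel_242; 16.1% of all tested) and 5 wholly below (novel_71, novel_184, novel_235, novel_245 and novel_259; 6.57% of all tested). Among those below, novel_184 and novel_259 (334 counts without the 90d +P libraries) were favoured by the rule to differ. After TMM scaling 4 members lay wholly above and 10 wholly below, against 13.1% of all tested in each direction. The median log2 difference of the members was -0.43, with 40 of 61 lower, and that of the 137 was -0.44; with library totals only, the latter moved up by 0.42 and the median of the members was -0.02.

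Change over time without phosphate was examined by 90d -P against 30d -P. No member passed the adjusted threshold in edgeR, DESeq2 or limma (0.0% of the 137 in edgeR; smallest adjusted p 0.476). By the unadjusted rule 4 members were called, 1 higher and 3 lower at 90 d, against 11 of 137 (8.03%: 2.92% higher and 5.11% lower). The one higher was novel_33, with 203, 382 and 568 TPM at 30 d and 2232, 938 and 2174 TPM at 90 d. Its log2 difference was 2.24 (SE 0.92, unadjusted p = 0.0296, adjusted p = 0.476) and its libraries did not overlap. The 30d -P libraries of novel_33 are thus the low ones in both of its comparisons, since they are shared.

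Lower at 90 d were novel_18, novel_68 and novel_15. The log2 difference of novel_18 was -3.62 (SE 1.30, unadjusted p = 0.0149, adjusted p = 0.476), from the values given above, in which 30d -P C held 17019 TPM. Without 30d -P C it was -2.09 (unadjusted p = 0.106) and the call was lost. In TPM novel_68 had 39.4, 226 and 191 in 30d -P A, B and C and 10.4, 13.7 and 17.6 in 90d -P, so that the libraries did not overlap. Its difference was -3.53 (SE 1.31, unadjusted p = 0.0182, adjusted p = 0.476), and it was lost at an unadjusted p of 0.0531 without 90d -P A. For novel_15 the difference was -2.30 (SE 0.91, unadjusted p = 0.0247, adjusted p = 0.476).

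Single libraries moved these calls as well. That of novel_15 was lost without 30d -P A, 30d -P B or 90d -P B, and that of novel_33 without 30d -P A, 30d -P B or 90d -P C. The number of members called was 2 without 30d -P A and 11 without 30d -P C, and also 11 with both C libraries of 30 d left out. These were 3.28%, 18% and 18% of the members, against 5.52%, 18% and 18.6% of all tested. Other scalings called 2 higher and 3 lower (size factors of relative log expression) or 3 higher and 3 lower (library totals only). In these, 10.9% and 11.7% of all tested were called. In TPM, 9 members were wholly higher at 90 d (13.9% of all tested) and 5 wholly lower (8.03%). Among the 9 were novel_5, novel_12, novel_20, novel_29, novel_45, novel_53 and novel_85. The median log2 difference of the members was 0.17 against -0.08 over the 137.

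Change over the same time with phosphate was examined by 90d +P against 30d +P, the comparison with the most members past the unadjusted rule. No member passed the adjusted threshold in the edgeR model (0.0% of the 137; smallest adjusted p 0.134) or in limma. In DESeq2 9 members did (15.3% of 59, against 31 of 135 miRNAs, 23.0%): novel_45, novel_58, novel_85, novel_185 and novel_279, which were higher at 90 d, and novel_38, novel_209, novel_214 and novel_242, which were lower. In the newer quasi-likelihood method of edgeR 7 did (11.5%, against 19 of 137 miRNAs, 13.9%), novel_45, novel_58, novel_85, novel_185, novel_209, novel_214 and novel_279, all of them among the 9. By the unadjusted rule 11 members were called, 8 higher and 3 lower, against 36 of 137 (26.3%: 13.1% in each direction). Of the 11, 5 had under 500 counts without the group in which they were higher: novel_85 (283 counts), novel_185 (309), novel_279 (371), novel_214 (391) and novel_242 (471). These 5 are described without a p. All of them are among the 9 of DESeq2. As the rule favoured them to differ, their passing any threshold, there or with the newer method, is not read as a result.

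Among members called higher, novel_45, novel_58 and novel_279 are given first, the last as a description only. In 30d +P novel_45 had 178, 123.6 and 181 TPM, and in 90d +P 1480, 796 and 227 TPM. The libraries did not overlap, and the log2 difference was 3.13 (SE 0.83, unadjusted p = 0.00212, adjusted p = 0.134). Adjusted p-values of novel_45 over 16 alternatives ran from 0.00183 to 0.243, and its unadjusted p stayed at or under 0.0177. In the -P groups novel_45 had 283, 326 and 161 TPM at 30 d and 660, 336 and 535 TPM at 90 d, with a log2 difference of 1.11 (SE 0.77, adjusted p = 0.686). For novel_58 the values were 57.5, 15.8 and 47.7 TPM in 30d +P and 167, 133 and 93.7 TPM in 90d +P, with a log2 difference of 2.48 (SE 0.84, unadjusted p = 0.0110, adjusted p = 0.134). The call of novel_58 was lost in 4 of 16 alternatives. Among these were the fits without 30d +P B or 90d +P A and that with library totals only (edgeR, unadjusted p = 0.0532). For novel_279 they were 10.4, 44.7 and 32.7 TPM against 138, 137 and 58.4 TPM, with a log2 difference of 2.55 (SE 0.92).

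The other 5 members called higher were novel_301, novel_85, novel_26, novel_185 and novel_59, with log2 differences of 3.70 (SE 1.40), 3.02 (SE 1.15), 1.58 (SE 0.62), 2.53 (SE 1.04) and 1.73 (SE 0.74). Of these, novel_301 did not separate the groups, as 90d +P B held 0.826 TPM, 1 count, beside 133 and 335 TPM in A and C. In 30d +P novel_185 had 4, 17 and 26 counts and in 90d +P 134, 127 and 30 counts.

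Lower at 90 d were novel_214, novel_209 and novel_242. In 30d +P novel_214 had 235, 1414 and 42.3 TPM and in 90d +P 4.99, 14.1 and 26.4 TPM, or 6, 17 and 24 counts. The log2 difference was -4.39 (SE 1.33). For novel_209 the values were 951, 216 and 162 TPM against 21.6, 23.1 and 1.10 TPM, with a log2 difference of -3.81 (SE 1.37, unadjusted p = 0.0150, adjusted p = 0.136). Without 30d +P A the unadjusted p of novel_209 was 0.0533. For novel_242 they were 242, 78.9 and 64.1 TPM against 16.6, 23.1 and 16.5 TPM, with a log2 difference of -1.79 (SE 0.77); the call was lost without 30d +P A or any 1 library of 90d +P. All 3 members had non-overlapping libraries.

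The direction of the calls moved with the scaling, and their number with the libraries used. The split was 8 higher and 3 lower with TMM, 6 and 8 with size factors of relative log expression, and 2 and 9 with library totals only. In those fits 26.3%, 29.9% and 34.3% of all tested were called. In TPM, 4 members were wholly higher at 90 d (9.49% of all tested) and 10 wholly lower (21.2%), whereas after TMM scaling 8 were wholly higher (13.9%) and 3 wholly lower (8.03%). Library totals moved the median of the 137 miRNAs down by 0.75 on the log2 scale relative to TMM, and the median of the members went from 0.52 (39 of 61 higher) to -0.25 (26 of 61 higher). Without 30d +P C 19 members were called (31.1%, against 34.0% of all tested), and without 90d +P A 6 (9.84%, against 15.1%). With both C libraries of 30 d left out, 21 were called by the unadjusted rule (34.4%, against 36.6%). In that fit novel_214 and novel_5 passed the adjusted threshold, the only 2 of 145 miRNAs to do so (1.38%). The libraries left out are those in which novel_5 was high at 30 d. Its adjusted p of 0.0401 there is therefore not read as a result. Nor is the call of novel_214, which has 391 counts without 30d +P. Over 16 alternatives the adjusted p of novel_5 ran from 0.0401 to 0.507. The log2 difference of novel_5 was 2.84 in that fit and 1.49 (SE 0.91, adjusted p = 0.284) with all libraries.

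Whether the phosphorus effect differed between the times was tested by the interaction. No member passed the adjusted threshold in edgeR, DESeq2 or limma (0.0% of the 137 in edgeR; smallest adjusted p among members 0.530). By the unadjusted rule 1 member was called, novel_18, against 7 of 137 (5.11%: 2.92% higher and 2.19% lower). The -P minus +P difference of novel_18 was 2.42 (SE 1.23, adjusted p = 0.962) at 30 d and -2.42 (SE 1.23, adjusted p = 0.510) at 90 d, and the interaction was -4.84 (SE 1.75, unadjusted p = 0.0153, adjusted p = 0.530). The value of 17019 TPM in 30d -P C bore on it: without that library the interaction was -3.31 (unadjusted p = 0.0636), and without both C libraries of 30 d it was -2.71 (unadjusted p = 0.113). With the letter as a block it was -3.50 (unadjusted p = 0.112), so that the call of novel_18 was lost, and the 1 member called in that fit was novel_311. The number of members called was 2 without 30d -P B, 30d +P B or 90d -P B, 3 without 30d +P C, and 5 without 30d +P A or 90d +P C. In those fits, in that order, 5.33%, 5.37%, 6.8%, 9.03%, 10.5% and 9.93% of all tested were called. Other scalings called 1 in each direction (relative log expression, 7.3% of all tested) or 3 higher and 1 lower (library totals only, 10.9%). The median of the members was -0.23, with 0.00 and 0.43 under those scalings.

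Set beside the members, the 16 known miRNAs tested had 6 past the unadjusted rule in 90d +P against 30d +P (2 higher, 4 lower), 1 in 90d -P against 90d +P and none in the other 2 comparisons between groups. Of the 46 predicted miRNAs with under 500 counts that were tested, 13 passed it in 90d +P against 30d +P (6 higher, 7 lower), 4 in 90d -P against 30d -P, 1 in 90d -P against 90d +P and none at 30 d. The median log2 difference of 90d +P against 30d +P was 0.52 over the members, -0.63 over the known miRNAs and -0.28 over the scarce predicted ones. No test was made of the difference between these lists.

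**Figure D5:**
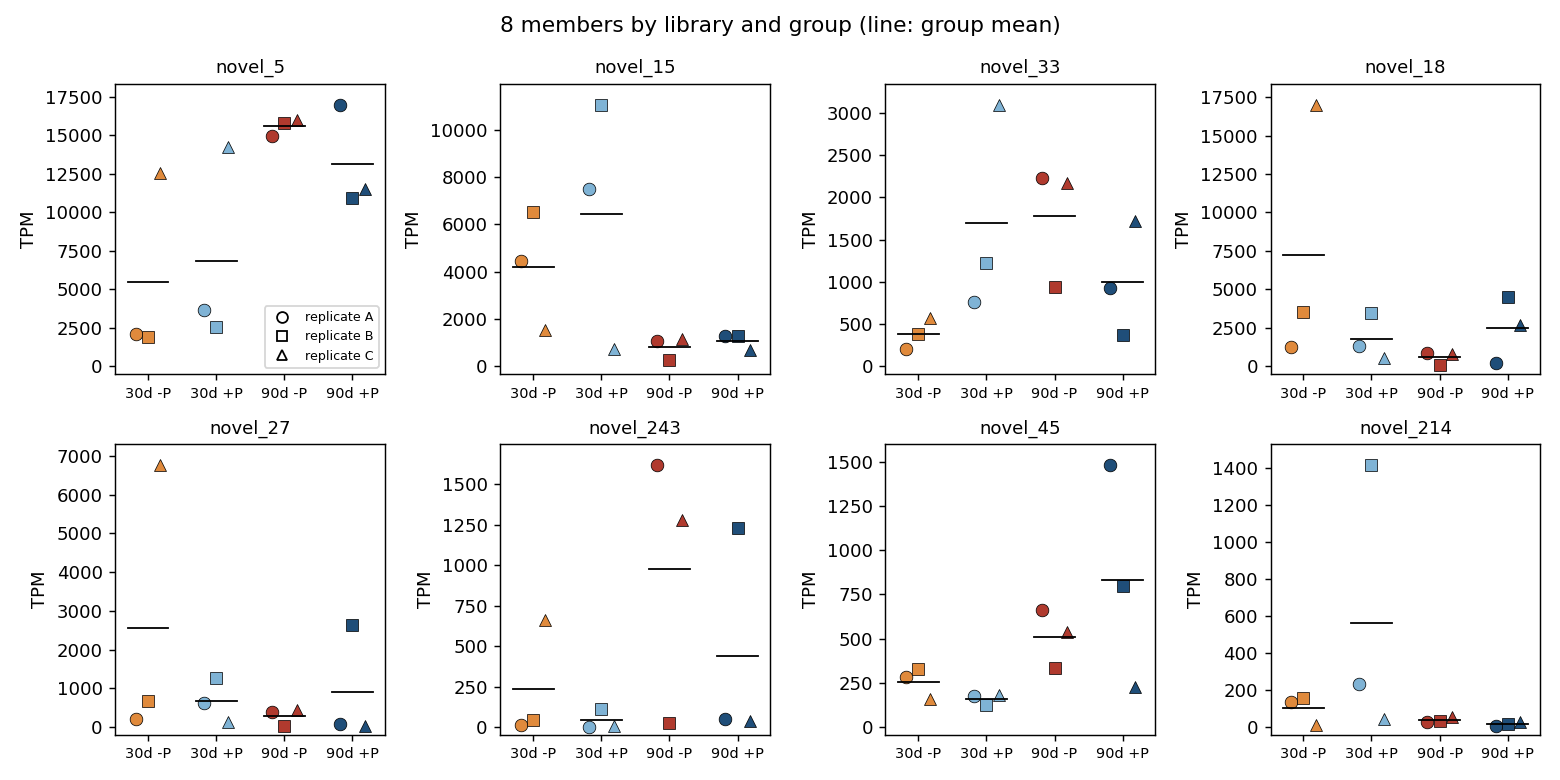
TPM of 8 members by group, with replicate letters as marker shapes and bars at the group means. In novel_5 and novel_15 the triangles of both 30 d groups lie with the 90 d libraries, in novel_18, novel_27 and novel_243 single libraries set the group means, and in novel_45 and novel_214 the 90d +P and 30d +P libraries do not overlap.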

How the data were processed

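Total RNA of leaves was made into small RNA libraries with adaptors ligated to both ends. The authors counted reads per miRNA and deposited whole-number read counts and TPM for 12 libraries; the deposited TPM equals each count over the table total, scaled to 1000000. Submitters' processing notes name Bowtie and DESeq2, and the study predicted miRNAs with miREvo and mirdeep2, with the versions and genome build behind the miRNA table and the miRNA release not given in the sources used here. Means by group from the authors, 4 columns, were not used, and 0 per-sample columns were left aside.

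Counts were tested with edgeR 4.0.16 (R 4.3.3; TMM, filterByExpr at a minimum count of 10, glmQLFit and glmQLFTest with 1 model of 4 groups) and Benjamini-Hochberg adjustment over 137 miRNAs; SEs are the log2 difference over the root of F. Log2 levels for the spread, the likeness of libraries, the principal component and the letters used TMM scaling and a prior count of 2. Alternatives were DESeq2 1.42.0 and limma 3.58.1 (log2 TPM with a pseudocount of 1 or 10), other scalings and filters, the newer edgeR method, the letter as a block, each library left out, and both C libraries of 30 d left out. Scripts were tested on simulated data of smaller dispersion than these libraries have, which does not show what would be recovered at their spread.

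Named members were the 10 highest in mean TPM, up to 3 higher and 3 lower by smallest p among those past the unadjusted rule in each comparison, the 3 widest and 3 narrowest spreads, and the 3 nearest the threshold on either side; any other member named was picked with its values in view. The members and lists were chosen with earlier results of these data known. The main fits were not paired by letter. The block alternative held the letter for all 12 libraries, those of 90 d included, so it is not a paired test of 30 d alone. At 30 d deviations from the group mean correlated over the 137 miRNAs in A (r = 0.455), B (0.236) and C (0.211). Between unlike letters of those 2 groups the mean r was -0.150. The lowest r of the letters was -0.267 between the groups of 90 d. It was -0.221 between the times in -P and -0.021 in +P. Intervals and floors cover counting error only, since reads carry no molecular identifiers.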

Additional observations from a re-analysis of the deposited data

How the results depend on the processing

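The alternatives were run on 14 fitted differences, those of members named for passing the unadjusted rule. None of these 14 reversed its sign, and 175 refitted values kept their side of that rule while 53 lost it. The numbers of members past the unadjusted rule moved more. Brackets hold the share of the members tested (59 in DESeq2, 61 elsewhere), then that of all miRNAs tested. The shares of all tested moved as well, so the counts are not read as results about the members. At 30 d, -P against +P, 1 member (1.64%, 3.65%) became 2 with size factors of relative log expression (3.28%, 4.38%) and 2 with library totals only (3.28%, 3.65%). The number was 5 in DESeq2 (8.47%, 7.41%), 3 with the newer edgeR method (4.92%, 7.3%) and 0 with the replicate block (0%, 2.92%). With 1 library left out it was 0 to 4 (0% to 6.56%, 1.33% to 7.38%). At 90 d, -P against +P, 2 (3.28%, 8.03%) became 1 with relative log expression (1.64%, 8.03%), 1 with library totals (1.64%, 9.49%) and 0 with no filter (0%, 5.91%). The number was 4 in DESeq2 (6.78%, 14.8%) and 5 with the newer method (8.2%, 15.3%). With limma at a pseudocount of 1 or 10 it was 1 (1.64%, then 9.49% or 7.3%), and with the block 0 (0%, 6.57%). With 1 library left out it was 0 to 2 (0% to 3.28%, 4.05% to 11.3%). For 90d -P against 30d -P, 4 (6.56%, 8.03%) became 9 in DESeq2 (15.3%, 16.3%) and 7 with the newer method (11.5%, 10.2%). With limma at a pseudocount of 1 or 10 the number was 9 (14.8%, then 12.4% or 10.2%). It was 11 without both C libraries of 30 d (18%, 18.6%) and 2 to 11 with 1 library left out (3.28% to 18%, 4.11% to 18%). For 90d +P against 30d +P, 11 (18%, 26.3%) became 17 (27.9%, 29.1%) with a stricter filter, 10 counts in at least 6 libraries. The number was 18 in DESeq2 (30.5%, 40%), 21 without both C libraries (34.4%, 36.6%) and 6 to 19 with 1 library left out (9.84% to 31.1%, 15.1% to 34%). Past the adjusted threshold, 0 became 9 in DESeq2 (15.3%, 23%), 7 with the newer method (11.5%, 13.9%) and 2 without both C libraries (3.28%, 1.38%). Each of these counts includes members that the rule favoured to differ. For the interaction, 1 (1.64%, 5.11%) became 2 with relative log expression (3.28%, 7.3%) and 4 with library totals (6.56%, 10.9%). The number was 2 with no filter (3.28%, 5.91%) and 2 with the stricter filter (3.28%, 5.45%). It was 7 in DESeq2 (11.9%, 14.1%) and 3 with the newer method (4.92%, 9.49%). With limma at a pseudocount of 1 or 10 it was 2 (3.28%, then 6.57% or 5.84%). It was 2 without both C libraries (3.28%, 6.9%) and 1 to 5 with 1 library left out (1.64% to 8.2%, 3.38% to 10.5%). The replicate block gave 5 members for 90d -P against 30d -P (8.2%, 8.76%) and 14 for 90d +P against 30d +P (23%, 24.8%). It gave 1 for the interaction (1.64%, 4.38%), novel_311 in place of novel_18, and that call of novel_311 is not read as a result. The cause of these moves was not tested. As a share of the counts of predicted miRNAs the members held 45.9%, 47.3%, 54.4% and 52.4% in 30d -P, 30d +P, 90d -P and 90d +P, and without aqc-miR166e 32.4%, 31.6%, 37.9% and 38.8%. With 3 libraries a group and members under 100 TPM resting on few counts, small differences were not detectable.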

Other observations

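The numbers that the prediction gave to the members follow their abundance in part. Among the 38 members numbered up to 100 (novel_3 to novel_85), the number and the total count had a Spearman rho of -0.94, whereas among the 23 numbered above 100 (novel_162 to novel_311) it was 0.00; both are descriptions over miRNAs of the same libraries. Members were highest most often in 30d +P A (14 of 61), 90d +P A (10), 30d +P B (9) and 30d +P C (8), and the highest group mean fell in 30d +P for 24 members, 90d +P for 16, 90d -P for 15 and 30d -P for 6. Those counts are on the TPM scale, in which the TMM factors of the libraries ranged from 0.688 in 90d +P C to 1.85 in 30d +P A.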
